A study of Mus musculus with 4 samples.

Results

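The genes described here encode the nuclear subunits of respiratory complexes I, III and IV and of ATP synthase, complex V, in mouse mammary tumors. Rows were taken by gene symbol. Names made of Nduf, then a, b, c, s or v, and a number with nothing after it were taken. To these were added names that begin with Uqcr, with Cox4 to Cox8 or with Atp5, together with Cyc1. Ndufa5 and processed pseudogene names were left out, which gave 80 of the 23746 rows of each table. By the known place of each product, 34 belonged to complex I, 9 to complex III, 19 to complex IV and 15 to complex V. The remaining 3, Atp5s, Atp5sl and Cox4nb, match by name only and are not subunits. Ndufa4, named after complex I, and Cox7a2l, a factor that links complexes III and IV, were counted with complex IV.

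PolyA RNA of 4 primary mammary tumors of female mice was sequenced. Tumors 26043 and 26044 came from WapCre;Rank;Brca1;p53 triple-mutant females and tumors 26048 and 26050 from WapCre;Brca1;p53 double-mutant females. Brca1 and p53 are thus mutated in all 4 tumors, there was no wild-type tissue among the samples, and the genotypes differ in Rank (gene symbol Tnfrsf11a), the receptor of the hormone-induced ligand RANKL. The Cre transgene is active in both luminal and basal mammary epithelial cells, and its activity in immune, fat and vessel cells of the tumor is not given. The study calls the females of both genotypes littermates, but which tumors came from the same litter is not given. The ages of these females and the grades of these tumors are not given either. In its wider cohort the study found high-grade tumors in double-mutant females only, beside intermediate-grade tumors in both genotypes. The tumor number stands for the replicate. For any single gene, the smallest two-sided p that exact permutation of 2 against 2 tumors can give is 0.333.

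Complex I takes electrons from NADH and passes them to ubiquinone, complex III passes them on to cytochrome c, and complex IV gives them to oxygen. All 3 build a proton gradient across the inner mitochondrial membrane, and complex V uses this gradient to make ATP. Each complex joins products of the nuclear genes described here with a few encoded by mitochondrial DNA, and complex IV can be built with tissue-restricted isoforms of several subunits in place of the widely expressed ones. Many of these genes are short and have processed pseudogenes, with which a part of their reads may be shared.

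The values are FPKM, fragments per kilobase of transcript scaled to the mapped fragments of the tumor, as the authors estimated them. The number of reads behind them is not known. Rank was at 2.07 and 0.962 FPKM in the triple-mutant tumors compared with 10.6 and 11.9 FPKM in the others, in the direction of the labels. Brca1 was at 3.26 and 3.28 FPKM against 3.84 and 5.69 FPKM, and Trp53 at 15.7 and 87.8 FPKM against 149.7 and 103.1 FPKM, values over the whole gene that include any part not deleted. Epithelial markers summed to 371.1 FPKM in tumor 26044 and to 1826.0 to 2856.5 FPKM in the other 3, but the basal and luminal keratins of this list went opposite ways. The basal Krt5 was at 596.0 and 113.9 FPKM in triple-mutant tumors and at 1.15 and 2.06 FPKM in the others, and Krt14 at 611.4 and 42.5 against 2.08 and 6.99 FPKM. The luminal Krt8 was at 578.5 and 98.3 against 707.6 and 701.1 FPKM. Adipocyte markers summed to 2199.4 FPKM in tumor 26048 and to 65.6 to 290.6 FPKM in the others, and all 8 of them were highest in tumor 26048. Endothelial markers were highest in tumor 26044 (78.1 FPKM against 24.7 to 43.8) and skeletal muscle markers in tumor 26050 (37.3 FPKM against 2.33 to 3.09). Macrophage markers summed to 157.5 to 566.8 FPKM and fibroblast markers to 122.8 to 899.3 FPKM, both sums lowest in tumor 26044 and highest in tumor 26048. Not every gene followed the sum of its list. The fibroblast gene Pdgfra was highest in tumor 26044, at 19.1 FPKM against 1.44 to 2.9 FPKM. The macrophage gene Cd68 was lowest in tumor 26043 (23.3 FPKM) and highest in tumor 26050 (53.3 FPKM). T-cell markers stayed between 1.08 and 3.93 FPKM. Erythrocyte markers went both ways in tumor 26044, where Hbb-bs was at 714.5 FPKM against at most 117.7 FPKM in the others and Hba-a2 was listed at 0 against 32.6 to 60.4 FPKM. In such bulk tissue, fewer cells of a type and less RNA per cell cannot be told apart. The part of these differences in the results was not tested.

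The nuclear oxidative phosphorylation genes were highly expressed in every tumor. Together they took 4.08% of the summed FPKM in tumor 26043, 3.86% in tumor 26044, 3.70% in tumor 26048 and 3.29% in tumor 26050. Both triple-mutant tumors had the larger shares in total and in complexes III and V, but not in complexes I and IV. Complex III took 0.439% and 0.5% in triple-mutant tumors against 0.432% and 0.37%, so tumors 26043 and 26048 were nearly level. These shares rest on the deposited FPKM, which for short genes lay far from the authors' confidence interval, as described below. Complex I took 1.0% and 0.957% in triple-mutant tumors against 0.986% and 0.781%, and complex IV 1.17% and 0.904% against 1.14% and 0.935%. A single gene, Atp5e, gave 2864.8 FPKM of the total in tumor 26044, against 812.7 to 996.6 FPKM in the others. The median member stood at 271.3, 268.3, 277.3 and 244.8 FPKM in the order of the tumor numbers, while the median of all genes tested was 10.4 to 12.4 FPKM. Of the 80 members, 77 had at least 1 FPKM in at least 2 tumors and were tested. The other 3 were isoforms of complex IV known from muscle and testis. Cox6a2, the heart and muscle form of subunit 6a, was at 0.560, 0.858, 0.867 and 1.57 FPKM, while the testis forms Cox7b2 and Cox8c were listed at 0 in every tumor.

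**Figure D1:**
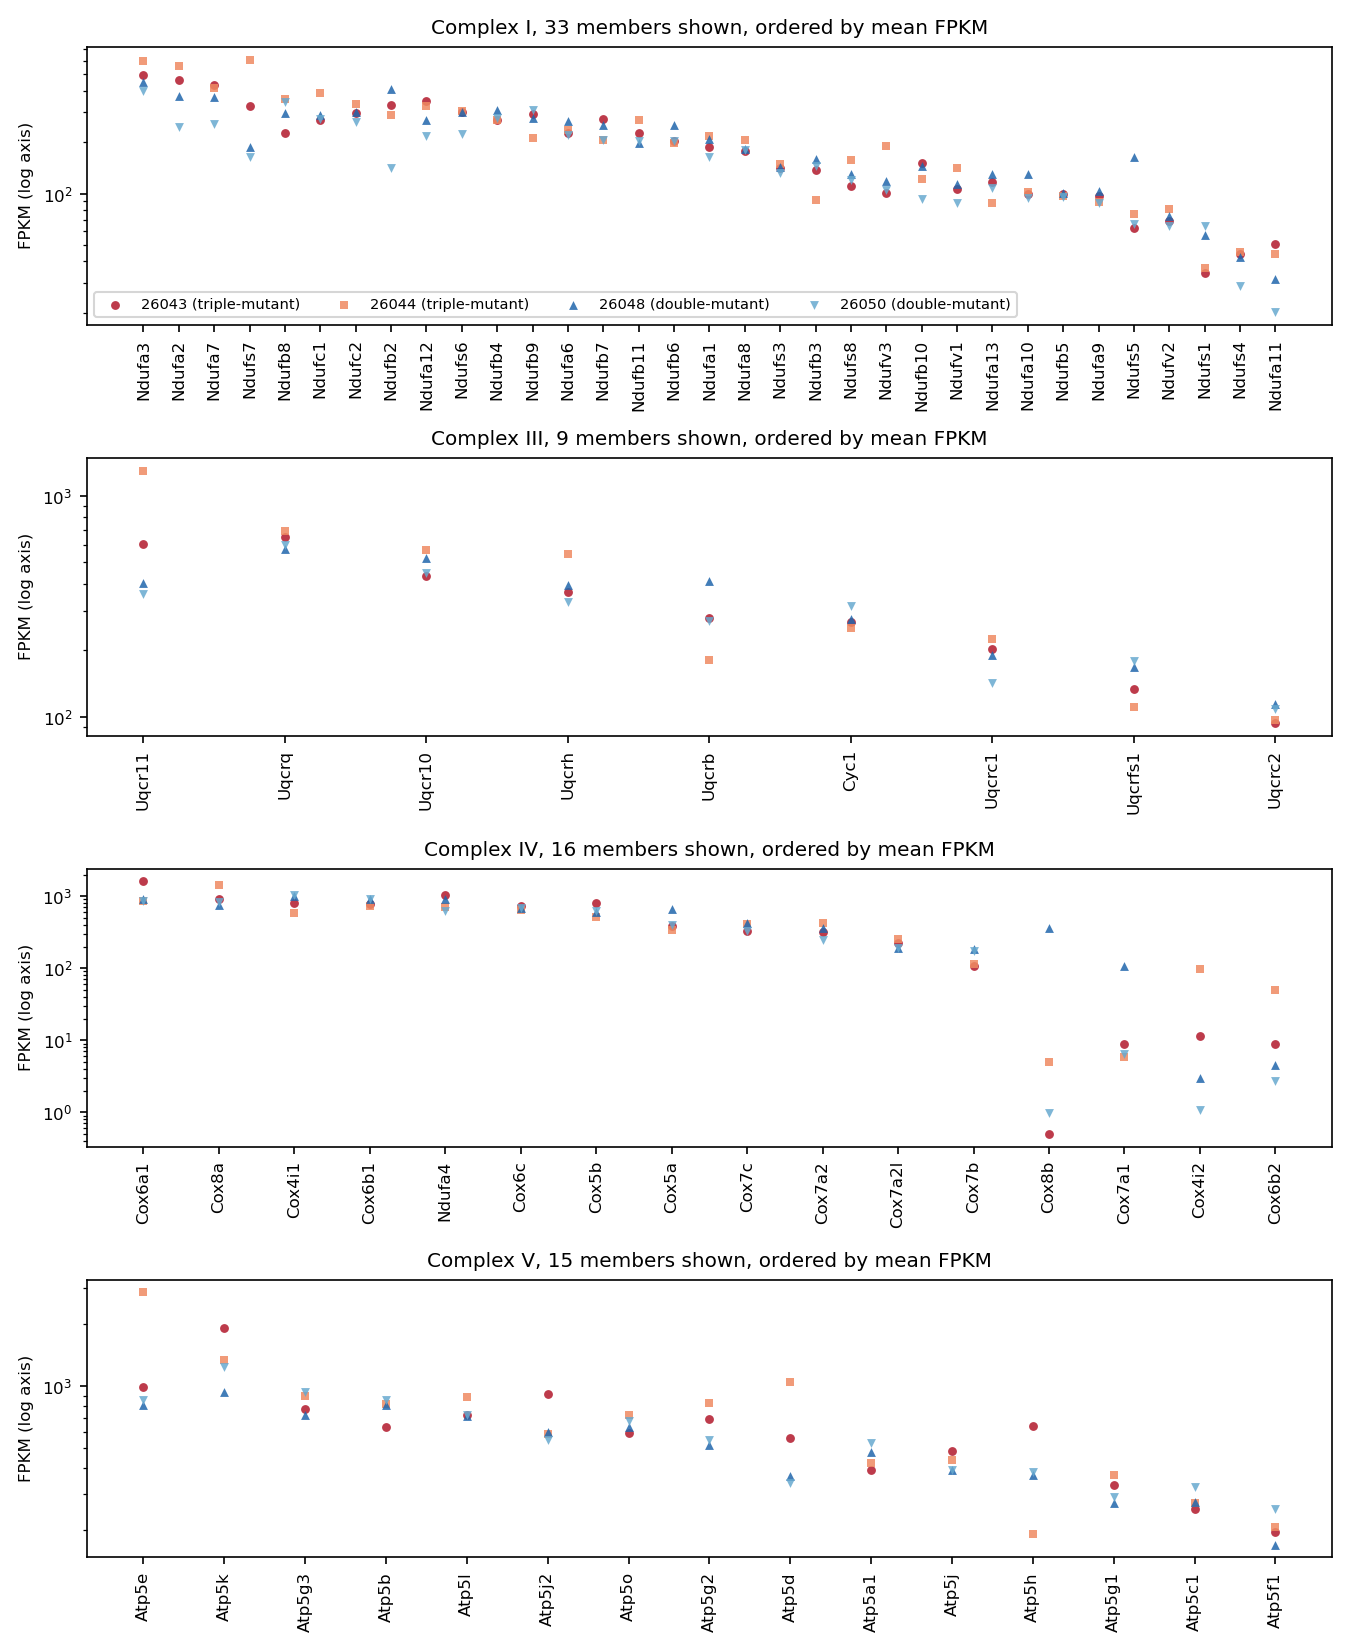
FPKM of 73 tested subunits in each of the 4 tumors on a logarithmic axis, 1 panel per complex, with genes ordered by their mean. Red and orange points are triple-mutant and blue points double-mutant tumors, and the value of Cox8b in tumor 26043, listed at 0, is drawn at 0.5. Most subunits lie close together across the tumors, and the widest spread is in the 4 isoforms at the right of the complex IV panel.

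Between the genotypes, the nuclear subunits as a group were close to level. Over the 77 tested members the median log2 fold change, triple-mutant minus double-mutant on the log2(FPKM + 1) scale, was 0.07, against -0.02 over all 12752 genes tested. By complex the medians were 0.09 for complex I, 0.04 for complex III, 0.03 for complex IV and 0.16 for complex V. The scalings tried left the median of all members between 0.04 and 0.08, while the small medians of complexes III and IV changed sign, to -0.01 with quantile normalization and to -0.01 with the midpoint of the authors' confidence interval. The median size of a member's log2 fold change was 0.28, smaller than the 0.38 of all genes tested.

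By limma with Benjamini-Hochberg adjustment over all genes tested, 0 of 77 members had an adjusted p under 0.05, as had 0 of all genes tested (0%), and the smallest adjusted p of a member was 0.475. At an unadjusted p under 0.05 there were 7 members, against 1252 genes (9.82%) in the whole table. Of these members, 5 were higher in triple-mutant tumors (background 5.91%), namely Ndufs7, Cox4i2, Uqcr11, Cox6b2 and Atp5d, and 2 were lower (background 3.91%), Ndufs1 and Cox7b. With so few tumors, the description below therefore gives each tumor's value and says whether the genotypes overlap.

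In 22 of 77 members (28.6%) the triple-mutant tumors both exceeded the double-mutant ones, where 21.3% of all genes tested did. In 14 (18.2%) they were both lower, where 22.9% of all genes were, and for both directions together the share was 46.8% against 44.3%. When each tumor was centred on its median gene, the shares became 23.4% higher and 20.8% lower. A log2 fold change of at least 1 in size was found for 8 members (10.4%), against 14.5% of all genes tested. Complex V had 7 of 15 members higher and 2 lower, complex I had 8 higher and 5 lower of 34, complex III had 3 and 3 of 9, and complex IV had 4 and 4 of 16.

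**Figure D2:**
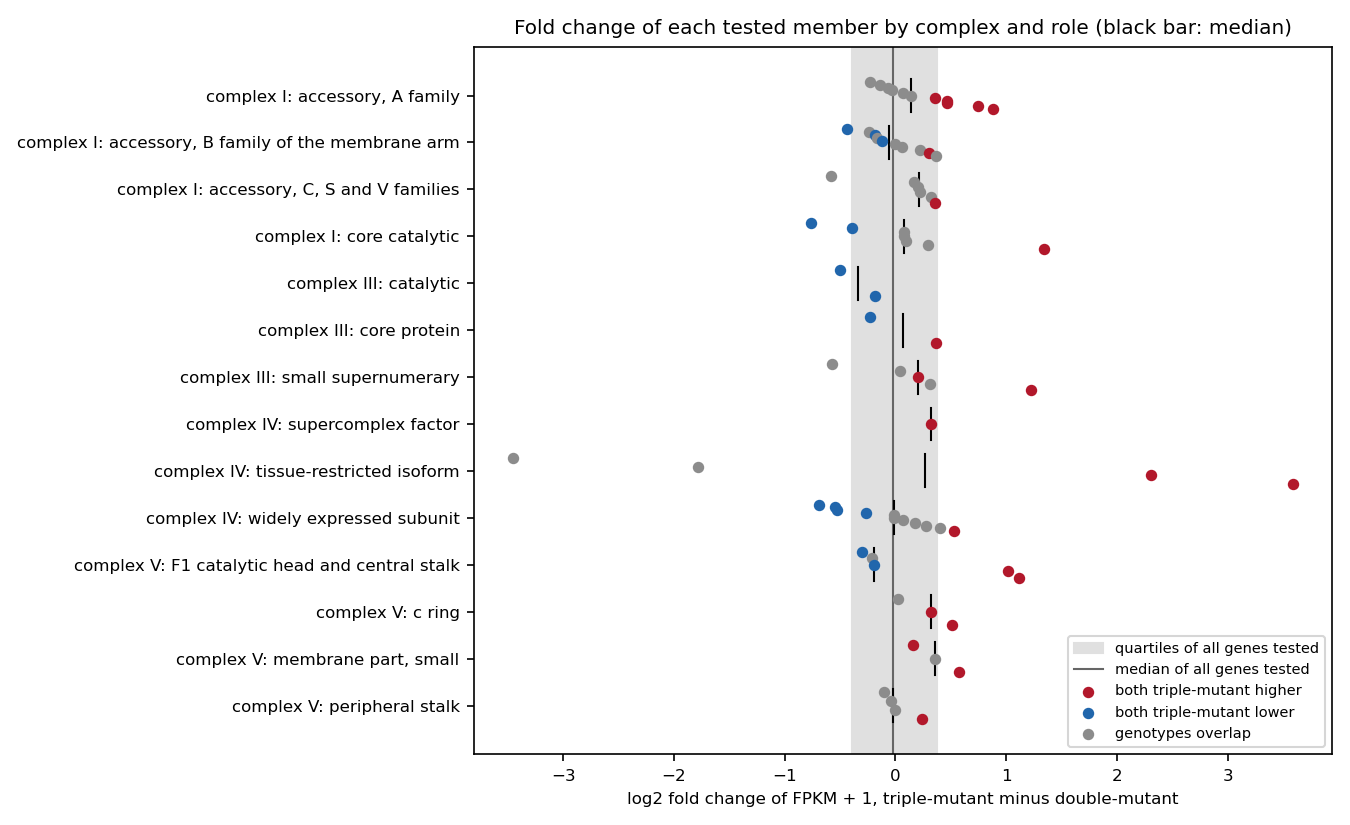
Log2 fold change of FPKM + 1, triple-mutant minus double-mutant, of each tested subunit by complex and role. Colours show whether the genotypes overlap, black bars are medians, and the grey band and line are the quartiles and the median of all genes tested (-0.39 to 0.38, median -0.02). Most points lie in or near the band, and the 4 tissue-restricted isoforms of complex IV reach from -3.45 to 3.59.

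Differences between tumors of the same genotype were about as large as those between genotypes. Over the members, the median absolute difference was 0.27 log2 units between the 2 triple-mutant tumors and 0.19 between the 2 double-mutant tumors. Across genotypes it was 0.24 to 0.38, and all of these were below the values over all genes tested (0.45, 0.36 and 0.37 to 0.57). Tumor 26044 was the highest of the 4 in 32 of 77 members (41.6%, against 24.2% of all genes tested), and tumor 26050 was the lowest in 31 (40.3%, against 28.2%). In complex I alone, tumor 26050 was lowest in 19 of 34 members and tumor 26044 highest in 16.

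The core subunits of complex I encoded in the nucleus carry the flavin and the iron-sulfur clusters, and they did not share a direction. Ndufs7, which holds the last iron-sulfur cluster before ubiquinone (chr10:80249452-80256792 on GRCm38), was at 323.9 and 609.8 FPKM in triple-mutant tumors, compared with 187.9 and 162.9 FPKM in double-mutant ones. Its log2 fold change was 1.34 ± 0.40 (SE, limma adjusted p = 0.475), the largest of complex I, and tumor 26044 stood highest. Ndufs1, the large iron-sulfur subunit of the NADH-oxidizing end, was at 34.2 and 36.6 against 56.9 and 64.3 FPKM, a log2 fold change of -0.76 ± 0.26 (SE, limma adjusted p = 0.488). Within each genotype the Ndufs1 values lay closer together than the gap between genotypes. Ndufv1, which binds NADH, had 105.8 and 140.7 against 114.0 and 87.6 FPKM, and Ndufv2, Ndufs3 and Ndufs8 had log2 fold changes between 0.08 and 0.10. The genotypes overlapped in all 4 of these genes.

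Of 11 accessory subunits of the A family, 5 were higher in both triple-mutant tumors and 0 lower (45.5% and 0%, median log2 fold change 0.14). Of 10 subunits of the B family, which sit in the membrane arm, 1 was higher and 3 were lower (10% and 30.0%, median -0.06). Over all genes tested the shares were 21.3% and 22.9%, and the difference between these small families was not tested. Ndufa11, a membrane subunit and the lowest of complex I by mean FPKM, was at 50.9 and 44.2 FPKM in triple-mutant tumors, compared with 31.6 and 20.2 FPKM in double-mutant ones (log2 fold change 0.88 ± 0.33 SE, limma adjusted p = 0.511). Ndufa2 stood at 460.7 and 562.2 against 374.8 and 244.8 FPKM. For Ndufa12 the values were 348.9 and 324.2 against 268.7 and 218.1 FPKM. In all 3 genes tumor 26050 was the lowest. Ndufa3 and Ndufa7, with Ndufa2 the most abundant of complex I, also did not overlap, at 498.8 and 594.7 against 452.0 and 399.9 FPKM for Ndufa3 and at 433.1 and 413.5 against 365.9 and 255.0 FPKM for Ndufa7.

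On the lower side, Ndufb3 was at 137.7 and 91.6 FPKM in triple-mutant tumors, compared with 160.2 and 144.9 FPKM in double-mutant ones (log2 fold change -0.44). Ndufb6 was at 203.4 and 197.2 against 252.5 and 204.3 FPKM, so that 3 of the 4 tumors were nearly level. Ndufs4, a small accessory subunit of the matrix arm, was at 44.4 and 45.7 against 42.2 and 28.8 FPKM, and only tumor 26050 stood apart. Single tumors also set apart Ndufs5 (163.3 FPKM in tumor 26048 against 62.8 to 75.8 FPKM) and Ndufb2 (140.4 FPKM in tumor 26050 against 290.0 to 407.6 FPKM), both picked after their values were seen. Their log2 fold changes, -0.58 and 0.37, became 0.06 without tumor 26048 and -0.40 without tumor 26050.

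In complex III no direction was shared. Uqcrfs1, the Rieske iron-sulfur protein, was at 133.7 and 110.5 FPKM in triple-mutant tumors, compared with 167.8 and 178.0 FPKM in double-mutant ones (log2 fold change -0.50 ± 0.27 SE, limma adjusted p = 0.585). Cyc1, cytochrome c1, was at 268.5 and 253.0 against 277.3 and 315.9 FPKM (log2 fold change -0.18). The core proteins went opposite ways, Uqcrc1 with 201.6 and 224.3 against 191.1 and 141.9 FPKM and Uqcrc2 with 93.5 and 96.1 against 114.0 and 108.5 FPKM. Neither pair of genotypes overlapped, and both differences were small, 0.37 and -0.23 log2 units.

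Uqcr11, a very small subunit of the complex (chr10:80402997-80406821), was at 605.7 and 1305.7 FPKM in triple-mutant tumors, compared with 404.9 and 358.3 FPKM in double-mutant ones. The log2 fold change was 1.22 ± 0.46 (SE, limma adjusted p = 0.508), and tumor 26044 was again highest. Uqcrq, at 650.3 and 696.6 against 575.5 and 597.6 FPKM, was 0.20 log2 units higher. Uqcr10, at 434.1 and 570.1 against 523.2 and 447.7 FPKM, overlapped between genotypes, as did Uqcrh and Uqcrb.

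Subunits of complex IV that most tissues use had a median log2 fold change of -0.01, with 5 of 11 positive. In both triple-mutant tumors 4 of them were lower and 1 was higher (36.4% and 9.09%, against 22.9% and 21.3% of all genes tested). Cox4i1, the common form of the regulatory subunit 4, was at 813.0 and 589.9 FPKM in triple-mutant tumors, compared with 1005.9 and 1028.0 FPKM in double-mutant ones (log2 fold change -0.55 ± 0.31 SE, limma adjusted p = 0.604). Cox7b, a small membrane subunit, was at 106.0 and 114.3 against 182.7 and 172.6 FPKM (log2 fold change -0.69 ± 0.25 SE, limma adjusted p = 0.508). Its values were close within each genotype. Cox5a had 384.0 and 338.0 against 673.6 and 403.2 FPKM, with tumor 26048 far above the rest. Cox6b1 had 767.3 and 740.4 against 909.3 and 914.5 FPKM, a difference of -0.27 log2 units.

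Cox8a, the common form of subunit 8, was the one widely expressed subunit higher in both triple-mutant tumors, at 901.3 and 1434.2 against 744.0 and 831.7 FPKM (log2 fold change 0.53). Cox7a2l, the factor that links complexes III and IV, was at 224.5 and 253.4 against 188.0 and 193.7 FPKM. Cox6a1, the most abundant of complex IV, was high in tumor 26043 alone, at 1603.1 FPKM against 861.0 to 922.9 FPKM in the other 3. Without that tumor its log2 fold change of 0.40 became -0.05.

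The largest differences of all members were in the tissue-restricted isoforms of complex IV, and in each of them 1 tumor stood far above the other 3. Cox4i2, an isoform of subunit 4 known from lung (chr2:152754173-152765037), was at 11.5 and 96.6 FPKM in triple-mutant tumors, compared with 3.01 and 1.09 FPKM in double-mutant ones. The genotypes did not overlap, and tumor 26044 was far above all others. The log2 fold change was 3.59 ± 1.07 (SE, limma adjusted p = 0.475), and 2.11 without tumor 26044. Of the summed FPKM of Cox4i1 and Cox4i2, the latter made up 1.40% in tumor 26043, 14.1% in tumor 26044, 0.298% in tumor 26048 and 0.106% in tumor 26050.

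Cox6b2, known as the testis form of subunit 6b (chr7:4751794-4753094), showed the same order of tumors. It was at 8.83 and 50.2 FPKM in triple-mutant tumors, compared with 4.59 and 2.69 FPKM in double-mutant ones (log2 fold change 2.31 ± 0.86 SE, limma adjusted p = 0.508), and the fold change was 1.11 without tumor 26044. Its share of subunit 6b was 1.14% and 6.35% against 0.502% and 0.293%, and 1.93% and 11.6% against 0.938% and 0.541% by the midpoint of the authors' interval. Markers of 2 further kinds, listed after the data were seen, were read beside these isoforms. Pericyte markers summed to 68.7, 106.3, 64.5 and 33.5 FPKM in the order of the tumor numbers, with 5 of 8 highest in tumor 26044. Hypoxia-induced genes summed to 207.0, 364.7, 364.5 and 314.0 FPKM, and 4 of 8 were highest in tumor 26044. Within both lists the genes differed in their order of tumors, as with Notch3 among the former, at 25.4 FPKM in tumor 26043 against 8.31 FPKM in tumor 26044, and Egln3 among the latter, at 52.4 FPKM in tumor 26044 against 132.7 FPKM in tumor 26048. Tumor 26044, where Cox4i2 and Cox6b2 were highest, also had the lowest epithelial sum (371.1 FPKM) and the highest endothelial sum (78.1 FPKM). The part of each in the result was not tested.

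Cox7a1 and Cox8b, the heart and muscle forms of subunits 7a and 8 that brown fat also uses, stood out in the double-mutant tumor 26048 alone. Cox8b (chr7:140898942-140900446) was at 367.3 FPKM in tumor 26048, 0.962 FPKM in the double-mutant tumor 26050 and 5.03 FPKM in the triple-mutant tumor 26044, and was listed at 0 in tumor 26043. Cox7a1 (chr7:30184171-30186030) was at 107.3 FPKM in tumor 26048 against 5.92 to 8.78 FPKM in the other 3. Both genes overlapped between genotypes, and their log2 fold changes of -3.45 (standard error 2.66) and -1.78 (standard error 1.32) became 0.32 and 0.15 without tumor 26048. In that tumor Cox8b made up 33.0% of subunit 8 and Cox7a1 22.7% of subunit 7a, against at most 0.350% and 2.66% in the others.

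Markers of fat moved with these isoforms. Brown adipocyte markers summed to 204.6 FPKM in tumor 26048 and to 1.76 to 10.2 FPKM in the others, and 4 of 5 were highest in tumor 26048. Ucp1, the uncoupling protein that defines brown fat, was at 124.9 FPKM there and at most 0.113 FPKM elsewhere, and was listed at 0 in tumor 26043. Skeletal muscle markers summed to 2.33 FPKM in tumor 26048, and were highest in tumor 26050, where Cox8b was at 0.962 FPKM and Cox6a2 was at 1.57 FPKM. The part of fat tissue in the result was not tested.

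**Figure D3:**
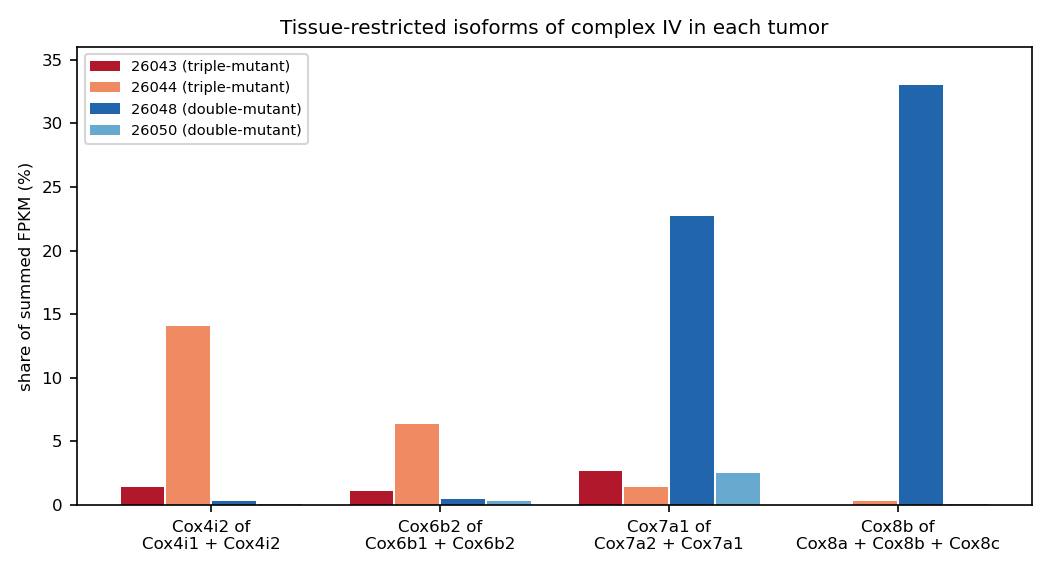
Share of each tissue-restricted isoform in the summed FPKM of its subunit, in percent, by tumor. Cox4i2 and Cox6b2 reach 14.1% and 6.35% in the triple-mutant tumor 26044, and Cox7a1 and Cox8b reach 22.7% and 33.0% in the double-mutant tumor 26048, while the other bars stay at or below 2.66%. By the midpoint of the interval the share of Cox6b2 in tumor 26044 is 11.6%.

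The sequence before the start of the 2 forms of subunits 6b and 8 is shown because the forms of a subunit differed so widely between tumors. Each line is the 250 bases before the RefSeq start on GRCm38.p6, 5′ to 3′ on the strand of the gene, and capitals mark a match to the motifs named below. Cox6b1 lies on the minus strand at chr7:30626115-30626364 and Cox6b2 on the minus strand at chr7:4753095-4753344. Cox8a lies on the minus strand at chr19:7217617-7217866 and Cox8b on the minus strand at chr7:140900447-140900696.
Cox6b1: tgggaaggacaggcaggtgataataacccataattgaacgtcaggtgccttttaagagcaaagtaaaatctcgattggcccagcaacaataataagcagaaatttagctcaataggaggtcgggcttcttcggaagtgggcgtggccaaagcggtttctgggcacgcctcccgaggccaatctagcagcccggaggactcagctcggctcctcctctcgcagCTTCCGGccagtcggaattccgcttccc
Cox6b2: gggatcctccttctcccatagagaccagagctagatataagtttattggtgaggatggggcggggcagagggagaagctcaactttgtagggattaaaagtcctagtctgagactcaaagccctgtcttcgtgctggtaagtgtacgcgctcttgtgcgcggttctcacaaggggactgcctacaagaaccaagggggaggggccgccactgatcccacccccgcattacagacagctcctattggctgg
Cox8a: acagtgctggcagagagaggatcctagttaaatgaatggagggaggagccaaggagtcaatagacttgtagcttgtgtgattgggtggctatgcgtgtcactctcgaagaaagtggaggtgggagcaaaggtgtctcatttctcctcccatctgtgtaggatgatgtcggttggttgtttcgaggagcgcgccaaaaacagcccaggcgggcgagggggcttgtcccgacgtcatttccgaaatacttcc
Cox8b: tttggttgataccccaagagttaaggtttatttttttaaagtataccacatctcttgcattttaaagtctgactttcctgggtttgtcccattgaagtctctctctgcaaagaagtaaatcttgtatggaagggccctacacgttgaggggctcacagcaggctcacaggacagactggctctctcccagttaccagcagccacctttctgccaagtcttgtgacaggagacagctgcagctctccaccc
The Cox6b1 window held 1 ETS match 28 bases before the RefSeq start, and the other windows held none of the motifs. The deposited start of Cox6b1 lies 37 bases upstream of the RefSeq start, so by the deposited gene this match lies just after the start.

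Promoters of 65 of the 80 members were matched in the RefSeq table, as windows from 250 bases before to 50 after the start. Among those not matched were Ndufa2, Ndufb9, Ndufs1, Cyc1, Uqcrc2, Uqcrb, Uqcrq, Cox4i1, Cox4i2, Cox6a2, Cox6c, Cox8c, Atp5a1 and Cox4nb. The letters CCGGAAG, bound by ETS factors such as GABPA, were found on either strand in 14 of the 65 genes (21.5%, against 9.93% of 27025 genes). The NRF1 letters, GCGCA, 1 free base and GCGC, were also found in 14 (21.5% against 5.19%), and the YY1 letters AAGATGG in 12 (18.5% against 7.28%). TATAAAA was found in 3 (4.62% against 6.39%). NRF1, GABPA and YY1 are factors known to bind promoters of respiratory genes. By complex, NRF1 letters were in 6 of 14 promoters of complex V and 1 of 14 of complex IV, and of the 4 matched tissue-restricted isoforms 0 held the ETS, NRF1 or YY1 letters. The genes compared were all those of the RefSeq table, whether expressed in these tumors or not. Whether the higher shares are particular to respiratory genes was therefore not tested. A match of letters describes the sequence and is not a measured binding site.

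In complex V the F1 head was divided. Its large subunits were level or lower, with Atp5a1, the alpha subunit, at 390.9 and 424.9 FPKM in triple-mutant tumors, compared with 477.2 and 527.5 FPKM in double-mutant ones (log2 fold change -0.30). Atp5b, the beta subunit that makes ATP, overlapped at 636.3 and 822.5 against 809.5 and 861.4 FPKM. Atp5c1, the gamma subunit of the rotating stalk, was at 253.8 and 268.8 against 273.6 and 323.9 FPKM. The small subunits at the foot of the stalk were higher. Atp5d, the delta subunit (chr10:80142315-80145818), was at 558.8 and 1048.7 against 366.0 and 339.8 FPKM, with a log2 fold change of 1.12 ± 0.40 (SE, limma adjusted p = 0.503). Atp5e, the epsilon subunit (chr2:174461075-174464101), was at 996.6 and 2864.8 against 812.7 and 858.3 FPKM, the highest value of any member in any tumor. Its log2 fold change was 1.02 ± 0.58 (SE, limma adjusted p = 0.607), and 0.25 without tumor 26044.

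The c ring, which turns as protons pass, is encoded by 3 genes for the same mature protein, and 2 of them were higher in both triple-mutant tumors. Atp5g2 was at 690.2 and 833.4 FPKM in triple-mutant tumors, compared with 515.5 and 550.2 FPKM in double-mutant ones (log2 fold change 0.51 ± 0.28 SE, limma adjusted p = 0.598). Atp5g1 had 331.4 and 369.9 against 271.5 and 289.8 FPKM. Atp5g3 overlapped at 777.5 and 896.5 against 724.0 and 938.1 FPKM. Summed over the 3 genes the c ring stood at 1799.1 and 2099.8 against 1511.0 and 1778.2 FPKM, higher in both triple-mutant tumors but by little over tumor 26050. The share of Atp5g3 in this sum was 43.2% and 42.7% against 47.9% and 52.8%, and that of Atp5g2 was 38.4% and 39.7% against 34.1% and 30.9%. By the interval midpoint the share of Atp5g2 was 25.6% and 25.4% against 23.8% and 22.5%, and it was then below that of Atp5g1, so the order of these genes depends on the estimate. As the shares come from 1 sum, they are not independent.

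Among the small membrane subunits, Atp5k, subunit e, was at 1931.5 and 1339.4 FPKM in triple-mutant tumors, compared with 937.5 and 1245.4 FPKM in double-mutant ones (log2 fold change 0.57). The peripheral stalk was level, with a median log2 fold change of -0.02 over 4 genes. One of them, Atp5h, was uneven between the triple-mutant tumors, at 641.1 and 191.8 FPKM around 369.4 and 384.0 FPKM in the double-mutant tumors. Atp5f1, the lowest of complex V, had 194.2 and 207.0 against 169.2 and 251.9 FPKM. The 3 genes that match by name only were low, between 2.11 and 10.6 FPKM, and overlapped between genotypes.

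Ndufs7, Uqcr11 and Atp5d, which belong to 3 complexes, lie within 264506 bases of each other on chromosome 10, and the 3 stood above their double-mutant mean by a median of 0.67 log2 units in tumor 26043 and 1.77 in tumor 26044. Other genes nearby were also higher. Of 91 tested genes within 1 Mb of the 3 that are no members, 65 (71.4%) were higher in both triple-mutant tumors and 2 lower, with a median log2 fold change of 0.74. The share higher was 21.3% over all genes tested and 30.6% over genes of chromosome 10 more than 5 Mb away. The median of the 91 neighbours stood 0.57 log2 units above the double-mutant mean in tumor 26043 and 0.77 in tumor 26044. After subtraction of the median of the non-member genes within 2 Mb, the log2 fold changes were 0.64 for Ndufs7, 0.53 for Uqcr11 and 0.41 for Atp5d.

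The higher values reached beyond the segment on both sides, and more so on the side of lower coordinates. The 59 tested non-member genes from 1 to 5 Mb below had a median log2 fold change of 1.35, and the 34 genes from 1 to 5 Mb above one of 0.41. Of the former 72.9% and of the latter 52.9% were higher in both triple-mutant tumors, against 30.6% farther away on the chromosome. Over the remaining 432 genes of the chromosome the median was 0.23. The 2 other members on chromosome 10, Ndufa12 and Atp5b, had log2 fold changes of 0.47 and -0.21. Without the 3 genes of the segment, the median of complex III went from 0.04 to -0.07, that of complex V from 0.16 to 0.09 and that of complex I from 0.09 to 0.08. Each of the 3 had the largest fold change of its complex, so its removal could only lower the median or leave it. Tumor 26044, where all 3 genes of the segment were highest, is also the tumor with the low epithelial sum, and DNA copy number was not measured in these samples.

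**Figure D4:**
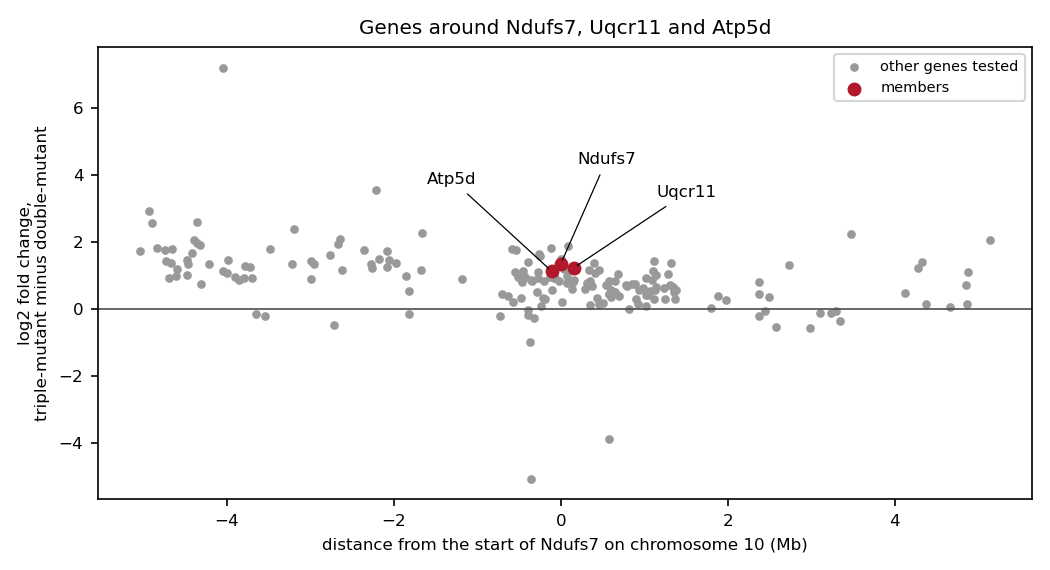
Log2 fold change, triple-mutant minus double-mutant, of tested genes by distance from the start of Ndufs7 on chromosome 10, in Mb. Red points are the members and grey points other genes, and most grey points within 1 Mb lie above 0, with a median of 0.74.

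The 250 bases before each of these 3 starts are shown since the genes were higher together in both triple-mutant tumors. Ndufs7 is on the plus strand at chr10:80249199-80249448, Uqcr11 on the minus strand at chr10:80406822-80407071 and Atp5d on the plus strand at chr10:80142065-80142314, the window at the deposited start of Atp5d out of 2 in the RefSeq table.
Ndufs7: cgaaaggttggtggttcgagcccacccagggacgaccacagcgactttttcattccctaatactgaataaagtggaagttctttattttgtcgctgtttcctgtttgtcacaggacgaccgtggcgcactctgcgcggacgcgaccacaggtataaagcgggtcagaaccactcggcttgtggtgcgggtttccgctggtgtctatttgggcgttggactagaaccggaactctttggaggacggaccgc
Uqcr11: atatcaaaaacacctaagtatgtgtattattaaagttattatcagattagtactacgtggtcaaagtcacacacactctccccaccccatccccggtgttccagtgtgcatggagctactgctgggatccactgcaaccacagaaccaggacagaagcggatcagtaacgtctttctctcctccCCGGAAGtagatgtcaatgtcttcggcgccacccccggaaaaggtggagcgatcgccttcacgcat
Atp5d: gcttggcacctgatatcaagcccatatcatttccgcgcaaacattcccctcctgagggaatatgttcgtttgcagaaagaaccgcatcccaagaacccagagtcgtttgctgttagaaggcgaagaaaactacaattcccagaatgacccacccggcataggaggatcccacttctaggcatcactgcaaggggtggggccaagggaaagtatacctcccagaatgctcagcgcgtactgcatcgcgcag
The ETS letters stood once before Uqcr11, 66 bases from its start, and the windows of Ndufs7 and Atp5d held none of the motifs searched.

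Across the genome, members also resembled their chromosomal neighbours. For 76 members with at least 5 tested non-member genes within 2 Mb, the log2 fold change of the member and the median of the neighbours had a Spearman correlation of 0.62 and a Pearson correlation of 0.39, and the same sign in 56 (73.7%). For 12415 other genes treated in the same way the Spearman correlation was 0.38, the Pearson correlation was 0.34 and the sign was shared by 65.1%. Without the chromosome 10 segment the Spearman correlation over 73 members was 0.57 and the Pearson correlation 0.29, the latter below that of the other genes. Without the tissue-restricted isoforms too they were 0.60 and 0.58 over 69 members. These correlations are across genes of the same 4 tumors, neighbouring members share some of their neighbours, and they are given as a description. After subtraction of the neighbours' median, Atp5a1, Atp5c1 and Ndufb3, lower in triple-mutant tumors, stood at 0.11, 0.01 and 0.03, while Uqcrc1, higher before, stood at -0.02. Other subunits kept most of their change or gained in size, such as Atp5g2 at 0.82, Ndufa11 at 0.79, Ndufa2 at 0.71 and Uqcrfs1 at -0.51. The isoforms Cox4i2 and Cox6b2 were hardly moved, at 3.52 and 2.24.

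**Figure D5:**
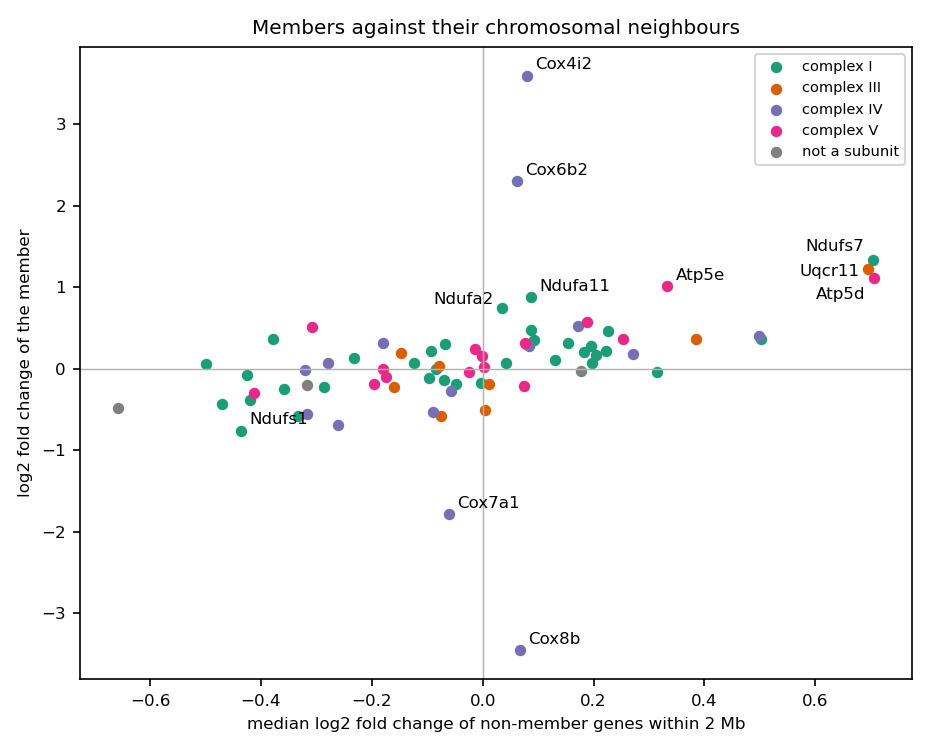
Log2 fold change of 76 members against the median log2 fold change of tested non-member genes within 2 Mb, coloured by complex. Most members follow their neighbours (Spearman correlation 0.62), Ndufs7, Uqcr11 and Atp5d lie at the far right, and the 4 tissue-restricted isoforms lie far above or below neighbours that are near 0.

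Transcript length also ran with the fold changes. The 49 tested members of up to 1000 bases had a median log2 fold change of 0.16, with 16 higher (32.7%) and 6 lower (12.2%) in both triple-mutant tumors. The 28 longer ones had a median of -0.04, with 6 higher (21.4%) and 8 lower (28.6%). Over all genes tested, the medians of the same length classes were 0.10 and -0.03. Of all short genes 27.1% were higher and 16.5% lower, and of all longer ones 20.7% and 23.5%. When the median of non-member genes of the same length class was subtracted, the median of all members was -0.03 and that of complex V -0.06. For short genes the deposited FPKM was also far from the deposited confidence interval. The FPKM lay outside its own interval for 62 to 64 of the 80 members per tumor, and the median ratio of FPKM to the midpoint was 1.76 to 1.80 for members of up to 1000 bases and 1.08 to 1.13 for longer ones. Levels of short and long genes can therefore be compared with caution only. With the midpoint in place of the FPKM, the 3 chromosome 10 genes had log2 fold changes of 1.14, 1.13 and 0.96, in the order Ndufs7, Uqcr11, Atp5d.

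Among the genes that work with these complexes, those of complex II were about level. Complex II links the citrate cycle to the chain and has no mitochondrial DNA-encoded part. In both triple-mutant tumors 0 of its 4 subunits were lower and 1 was higher (0% and 25%, against 22.9% and 21.3% of all genes tested). This was Sdhb, at 116.4 and 158.5 against 108.6 and 109.2 FPKM, and Sdha, Sdhc and Sdhd overlapped, with log2 fold changes of -0.18, -0.02 and 0.06. Of 6 partners such as cytochrome c and ubiquinone synthesis genes, 0 were higher and 3 lower (0% and 50%, against 21.3% and 22.9% of all genes tested). Among the lower ones was Coq9, at 22.4 and 16.4 against 30.6 and 24.8 FPKM. Of 40 assembly factors, 10 were higher and 14 lower (25% and 35%, against 21.3% and 22.9% of all genes tested), with a median of 0.02. Cox18, which helps insert a core subunit of complex IV into the membrane, was at 45.2 and 26.1 against 11.4 and 13.3 FPKM (log2 fold change 1.41 ± 0.37 SE, limma adjusted p = 0.442). Uqcc2, an assembly factor of complex III listed under an older symbol, was at 325.9 and 334.8 against 196.0 and 174.2 FPKM. At the other end, Nubpl, which helps place iron-sulfur clusters in complex I, was at 6.29 and 5.67 against 10.2 and 12.8 FPKM.

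Of 12 regulators of these genes, 3 were higher and 4 lower (25% and 33.3%, against 21.3% and 22.9% of all genes tested), with a median of -0.26. Tfam, which packs and transcribes mitochondrial DNA, was at 15.9 and 64.9 FPKM in triple-mutant tumors, compared with 11.5 and 13.2 FPKM in double-mutant ones, high in tumor 26044 alone. Polrmt, the mitochondrial RNA polymerase, was at 23.1 and 34.2 against 14.7 and 13.4 FPKM, and its gene lies 0.513 Mb from Ndufs7, among the chromosome 10 neighbours described above. Gabpa, one of the factors whose motif was searched, was at 11.7 and 11.1 against 14.4 and 15.5 FPKM, and Nrf1 and Yy1 overlapped between genotypes. Of 13 citrate cycle genes, 1 was higher and 6 were lower (46.2%, against 22.9% of all genes tested), with a median of -0.23. Dld, a subunit of the 2-oxoglutarate and pyruvate dehydrogenases, was at 25.4 and 21.6 against 57.1 and 49.4 FPKM (log2 fold change -1.15 ± 0.27 SE, limma adjusted p = 0.396), and Dlst at 40.3 and 30.8 against 56.6 and 78.9 FPKM. None of these lists held a gene with an adjusted p under 0.05 by limma, and at an unadjusted p under 0.05 there were 4 of 40 assembly factors, 1 of 12 regulators and 2 of 13 citrate cycle genes, where the share of all genes tested was 9.82%. The genes of these lists were chosen with results of these tumors known.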

How the data were processed

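The authors purified polyA RNA, made strand-marked libraries, sequenced 50-bp single-end reads and aligned them with TopHat2 2.0.10 and Bowtie 0.12.9. They deposited 1 table per tumor of FPKM by gene from Cufflinks 2.1.1, with the bounds of a confidence interval. The submitters' processing notes name mm10, HTSeq and DESeq2 1.6.2, and read counts were not used here. How reads matching several places were shared is not given in the sources used here, and the depth of each tumor is unknown. FPKM are not counts, so the authors' count test could not be repeated.

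The 4 tables were joined on symbol and position (23746 rows, 23284 symbols). GENCODE M21 held the symbols of 23185 rows, and 97.8% of these rows lay over their gene on GRCm38. Starts are given with 1 added. A gene was tested if 2 or more tumors reached 1 FPKM, which left 12752 genes. The genotypes were compared on log2(FPKM + 1) in limma (version 3.58.1, R 4.3.3) with trended variances, and p values were adjusted by Benjamini-Hochberg with 0.05 as threshold. The fit was also run on simulated data with the same spread for every gene, which does not test it for the uneven spreads of these tumors. Fold changes on this scale understate those of low genes. Lengths are of principal coding transcripts. Named members are, in each complex, up to 4 with the largest change in each direction among those not overlapping, the 3 highest and 2 lowest, the catalytic subunits, c ring and tissue isoforms, and the untested. In the other lists, complex II and up to 3 genes per direction could be named. The values of 1 member are not reported here, though it stays in the counts. A few members outside the rule, such as Atp5h, were named after their values were seen. The members and lists were chosen with earlier results of these data known. Tables were joined with pandas 2.3.3 and numpy 2.4.6 in Python 3.11.15 and drawn with matplotlib 3.10.9. Tumors are separate samples by their labels, and p values measure the spread between them only.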

Additional observations from a re-analysis of the deposited data

How the results depend on the processing

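Alternatives were TPM, quantile normalization, centring on the median, a filter of 5 FPKM or none, a pseudocount of 0.1, limma without a trend, status OK genes, Ndufa4 in complex I, leaving out each tumor, and subtraction of the neighbours' median. The interval midpoint, subtraction of the length-class median and leaving out the chromosome 10 genes were added after seeing the data. Of 150 alternative values of the summary results, 129 stayed close to those reported and 21 moved. Fitting without a trend cannot move the medians or the counts of overlap, so those values were bound to stay. Genes with an adjusted p under 0.05 numbered 6 with quantile normalization, 5 without the trend and 1 with the midpoint, with 0 members among them, and 0 with any tumor left out. The smallest adjusted p of a named member over the alternatives was 0.107. With a tumor left out, members not overlapping numbered 49 to 62 in all, 24 to 40 higher (31.2% to 51.9%, against 30.8% to 40.2% of all genes) and 19 to 25 lower (24.7% to 32.5%, against 31.9% to 45.1%), since 1 tumor overlaps less easily with 2, and the lone tumor is assumed to vary like the others. The medians then ranged from 0.01 to 0.15 for all members, -0.01 to 0.20 for complex I, -0.14 to 0.24 for complex III, -0.10 to 0.24 for complex IV and 0.15 to 0.24 for complex V. Subtraction of the length-class median gave -0.03 for all members and -0.06 for complex V, and without the chromosome 10 genes complex III was at -0.07. As those genes had the largest fold changes of their complexes, the direction of the latter shift was fixed by their choice.

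Of 476 alternative values of named members, 463 kept their sign and 13 reversed, in 10 members. The filters, the fit without a trend and the restriction to status OK genes cannot change a member's fold change. Their values were bound to keep the sign, and the count overstates the agreement. With 1 tumor left out, Cox6a1 ranged from -0.05 (without 26043) to 0.85, Atp5h from -0.97 to 0.77 (without 26044), Ndufb2 from -0.40 (without 26050) to 1.13, and, with the upper value without 26048, Cox7a1 from -3.72 to 0.15, Cox8b from -7.23 to 0.32 and Ndufs5 from -1.23 to 0.06. Less their neighbours, Atp5a1 stood at 0.11, Atp5c1 at 0.01, Atp5h at 0.07, Cox6a1 at -0.10, Ndufb3 at 0.03 and Uqcrc1 at -0.02, and by the midpoint Atp5h at 0.00. The causes were not tested. No paired analysis was possible because the genotypes share no replicate numbers. Depth is unknown, so the precision of low values cannot be given.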
